A study of Homo sapiens with 6 samples.

Results

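The metallothionein genes are a family of short genes that lie side by side on the long arm of chromosome 16. The 8 genes MT1A, MT1E, MT1F, MT1G, MT1M, MT1X, MT2A and MT1L were taken by name from the 26334 gene rows of a count table, and all 8 names were found. The rule that chose them uses no measured value, but the choice was made with earlier results of these data known. The question was whether their mRNA levels differed between breast cancer cells in which WDR5 was silenced and their controls.

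The cells were MCF10DCIS.com (MCF10DCIS), an established human breast cell line that forms lesions resembling ductal carcinoma in situ when grafted. They were infected with a vector that carried, behind a U6 promoter, either an shRNA against luciferase (shLuc, control, n = 3) or shRNAs against WDR5 (a pool of hairpins, shWDR5, n = 3). Both vectors also carried TagRFP and a puromycin resistance gene behind a UbiC promoter, and both groups were selected with puromycin in DMEM/F12 medium with horse serum. Poly-A RNA was sequenced and reads were counted per gene, with 38.2 to 57.6 M (1e6) counted reads per library. The results concern 1 cell line and 1 control hairpin. The labels do not say whether the replicates were separate cultures, so p-values measure the spread between these libraries.

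Metallothioneins are small proteins that are very rich in cysteine. The cysteines bind zinc and copper, and also toxic metals such as cadmium. In many cells the genes are switched on by zinc through MTF1, a zinc-sensing transcription factor that binds metal response elements in their promoters, and several of them also respond to glucocorticoids and oxidative stress. MT2A is the form expressed most broadly across tissues, and MT1A, MT1E, MT1F, MT1G, MT1M and MT1X are closely related copies. MT1L is annotated as a transcribed pseudogene.

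WDR5, the gene targeted by the hairpins, was measured at 52.6, 48.5 and 51.4 counts per 1e6 counted reads (CPM, scaled with TMM factors) in the 3 shLuc libraries and at 23.4, 24.4 and 20.8 CPM in the 3 shWDR5 libraries. Its log2 fold change was -1.15 ± 0.07 (SE), with an adjusted p of 8.67e-07 in edgeR's quasi-likelihood test. Silencing went along with broad changes. Of 16117 genes that passed a filter on low counts, 4291 were called higher and 4821 lower in shWDR5 at a false discovery rate (FDR) of 0.05. All 8 genes of a list looked at for basal breast epithelium were at 64.65 CPM or more in every library. They were KRT5, KRT6A, KRT14, KRT17, TP63 and LAMB3, with EPCAM and CDH1, which mark epithelial cells more generally. The highest levels were those of KRT17 (2065 to 4442 CPM) and LAMB3 (2102 to 3985 CPM). The summed level of the 8 lay between 6000 and 6767 CPM in shLuc and between 9669 and 11100 CPM in shWDR5. This sum mostly reflects KRT17 and LAMB3 and does not show that each of the 8 genes changed alike. The part of this difference in the metallothionein results was not tested. In bulk RNA, more or fewer cells of a type and more or less RNA per cell cannot be told apart. The 5 luminal markers summed to 3324 to 3590 CPM in shLuc and 3230 to 3549 CPM in shWDR5. KRT8 and KRT18 lay at 1221 CPM or more in every library and GATA3 at 26.1 to 38.8 CPM. ESR1 lay at only 2.94 to 4.08 CPM and PGR at 0 to 0.044 CPM. Of 9 markers of blood, endothelial and fibroblast cells, 2 were over 1 CPM in every library. These were CD68 at 10.29 to 13.05 CPM and PECAM1 at 3.801 to 6.691 CPM. CD3E and LUM had 0 reads, and the 9 together summed to 18.7 to 21.3 CPM in shLuc and 15.9 to 17.6 CPM in shWDR5.

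The copies are alike enough that the assignment of reads has to be considered first. The coding sequences of MT2A, MT1X and MT1G are given because MT2A and MT1X carried the measurable signal, and MT1G was the copy closest to MT2A. They come from GENCODE release 29 transcripts with a consensus coding sequence, read 5′ to 3′ from start to stop codon (186 bases each), and capitals mark bases that differ from MT2A.
MT2A: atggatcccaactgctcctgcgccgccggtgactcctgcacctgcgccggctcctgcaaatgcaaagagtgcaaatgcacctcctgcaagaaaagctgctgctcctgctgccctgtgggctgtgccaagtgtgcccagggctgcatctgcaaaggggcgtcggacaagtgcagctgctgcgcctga
MT1X: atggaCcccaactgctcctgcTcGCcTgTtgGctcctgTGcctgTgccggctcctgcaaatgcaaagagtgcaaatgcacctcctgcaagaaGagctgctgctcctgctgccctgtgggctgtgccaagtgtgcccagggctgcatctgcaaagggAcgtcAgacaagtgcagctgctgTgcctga
MT1G: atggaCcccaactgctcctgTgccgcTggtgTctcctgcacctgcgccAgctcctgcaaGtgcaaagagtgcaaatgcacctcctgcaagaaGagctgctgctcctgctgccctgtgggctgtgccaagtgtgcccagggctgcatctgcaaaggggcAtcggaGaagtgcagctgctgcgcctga
MT1X differed from MT2A at 14 of 186 aligned bases and MT1G at 9. The longest stretch without a difference was 63 bases for MT1X and 65 for MT1G. The other members with a coding sequence differed from MT2A at 14 (MT1A), 14 (MT1E), 16 (MT1F) and 19 bases (MT1M).

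The transcripts were then cut into overlapping windows of 50 and 100 bases. Exact matches of each window were searched on both strands in all other annotated transcripts. Matches with mismatches, and matches in the genome outside annotated transcripts, were not searched. At 100 bases every window of all 8 members was found in no annotated transcript of another locus. At 50 bases this held for 95.1% of the MT2A windows, against 84% for MT1X and 79.8% for MT1G, the lowest share. The shares are over transcripts of 786 (MT2A), 450 (MT1X) and 406 bases (MT1G), while reads were counted over 419, 404 and 405 bases. How the shared MT2A windows fall within the counted bases was not tested. Of the 64 shared MT1X windows, 14 occurred in MT2A transcripts, and of the 72 shared MT1G windows, 16 did. Annotated pseudogenes such as MT1P1 and MT1XP1 also shared windows with MT2A and MT1X. The read length, and how reads with more than one alignment were treated, are not given in the sources used here. The split of reads between copies is therefore uncertain, most plainly where windows are shared.

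MT2A was by far the most abundant metallothionein. It lies at chr16:56642478-56643409 on the plus strand (hg19) and is counted over 3 exons with a summed length of 419 bases. It held 24415, 16316 and 14991 reads in the shLuc libraries and 36622, 42211 and 30936 in the shWDR5 libraries. After scaling, its level was 494, 421 and 372 CPM in shLuc and 791, 743 and 682 CPM in shWDR5. All 3 shWDR5 libraries lay above all 3 shLuc libraries, and the gap between the groups was wider than the range within either. The group means were 429 ± 61.7 and 739 ± 54.2 CPM (SD, n = 3). MT2A rose 1.72-fold in shWDR5, a log2 fold change of 0.78 ± 0.10 (SE) with an adjusted p of 6.20e-05 in edgeR's quasi-likelihood test.

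MT1X, at the far end of the cluster, was the only other member that passed the filter. It lies at chr16:56716382-56718108 on the plus strand (hg19), also with 3 exons, of 404 bases in all. It held 72, 51 and 44 reads in shLuc and 109, 146 and 103 reads in shWDR5, or 1.46, 1.32 and 1.09 CPM against 2.35, 2.57 and 2.27 CPM. Here too the groups did not overlap. How many of all genes tested had groups without overlap was not counted. As 56.5% of all genes tested were called, a lack of overlap is given only as a description, here and for every other gene. MT1X rose 1.85-fold, from 1.29 ± 0.18 to 2.40 ± 0.15 CPM (SD, n = 3), with a log2 fold change of 0.89 ± 0.14 (SE) and an adjusted p of 0.00034 (edgeR).

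Both of the members that could be tested were thus called higher and 0 lower. This count has to be read against the background, since 56.5% of all genes tested were called, 26.6% higher and 29.9% lower. Of all genes tested, 7.79% had a larger log2 fold change than MT2A and 6.38% a larger one than MT1X. Under a stricter rule (FDR under 0.05, absolute log2 fold change of at least 0.6 and over 0.5 RPKM, CPM per kilobase of exon) both remained called, where 7.9% of all genes were called higher.

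**Figure D1:**
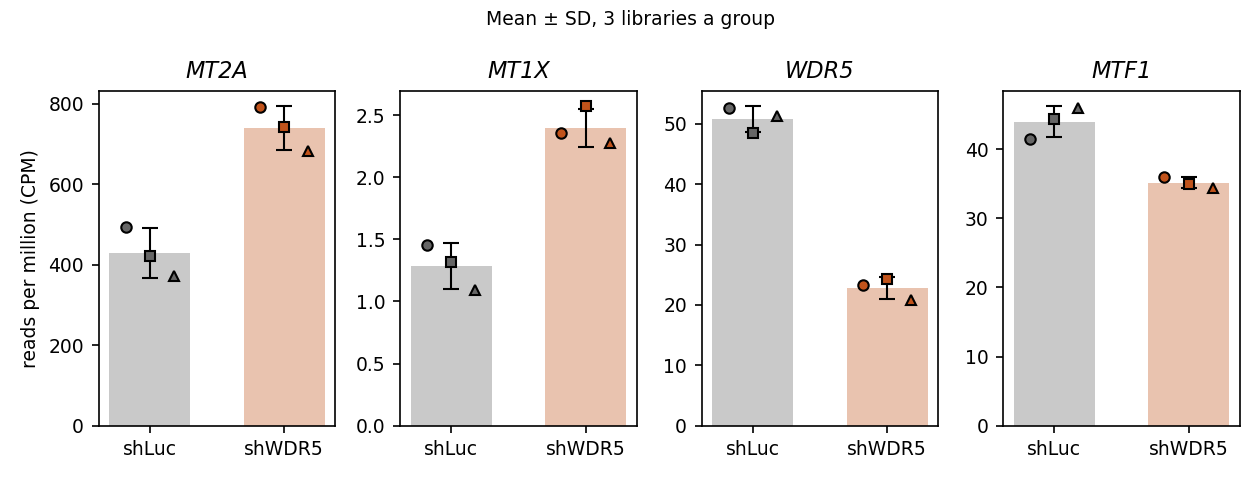
Level (CPM, linear axis from 0) of MT2A, MT1X, WDR5 and the zinc sensor MTF1, with bars for the mean of 3 libraries, error bars for the SD and 1 symbol per library (circle, square and triangle for replicates 1, 2 and 3). MT2A and MT1X were higher and WDR5 and MTF1 lower in every shWDR5 library than in every shLuc library.

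Per length the distance between the 2 genes was large. MT2A stood at 1023 ± 147 RPKM in shLuc and 1763 ± 129 RPKM in shWDR5 (SD, n = 3). MT1X stood at 3.19 ± 0.46 and 5.94 ± 0.38 RPKM. The level of MT2A was 321 times that of MT1X in shLuc and 297 times in shWDR5. Ranked per length among all gene rows, MT2A took place 36, 40 and 54 in the shLuc libraries and 19, 20 and 20 in the shWDR5 libraries, so that it was among the most abundant mRNAs of these cells in both groups.

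The ratio of the 2 genes varied little. For every 100 MT2A reads there were 0.295, 0.313 and 0.294 MT1X reads in the shLuc libraries and 0.298, 0.346 and 0.333 in the shWDR5 libraries. The 95% exact binomial intervals of single libraries, which cover counting error only, spanned 0.213 to 0.411 in shLuc and 0.244 to 0.407 in shWDR5, and all 6 intervals overlapped. The means of 0.300 ± 0.011 and 0.325 ± 0.025 (SD, n = 3) gave p = 0.2 in a two-sided exact permutation test, which cannot go below 0.1 with 3 against 3 libraries. Whether reads of MT2A were counted for MT1X was not tested.

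**Figure D2:**
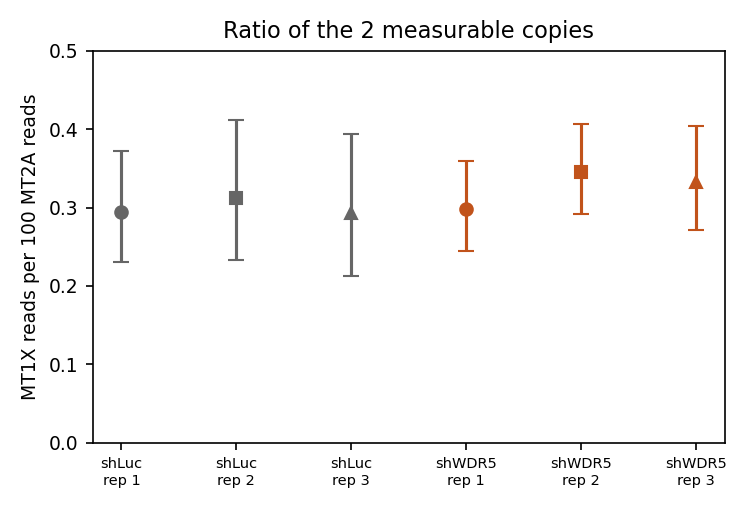
MT1X reads per 100 MT2A reads (linear axis from 0) in each library, with 95% exact binomial intervals that cover counting error only. The values lie between 0.294 and 0.346, and the intervals of all 6 libraries overlap.

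The other 6 members were at or near the limit of detection and did not pass the filter. Together they held 36 reads in shLuc and 38 in shWDR5, and MT2A made up 99.6% to 99.7% of all member reads in each library. Their values are given as a description.

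MT1F (chr16:56691855-56693215, plus strand, hg19) held 13, 3 and 5 reads in shLuc and 7, 4 and 5 in shWDR5. The groups overlapped. Scaled for depth, the shWDR5 libraries together held 0.66 times the shLuc value, with a 95% counting interval of 0.322 to 1.33. MT1E (chr16:56659585-56661024, plus strand) held 0, 7 and 3 reads in shLuc and 2, 0 and 1 in shWDR5, a ratio of 0.26 with an interval of 0.046 to 1.01. A single shLuc library gave most of the MT1E reads.

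MT1G (chr16:56700647-56701977, hg19), the only member on the minus strand, held 1, 0 and 3 reads in shLuc and 9, 8 and 1 in shWDR5. The ratio of the pooled reads was 3.90, and its 95% counting interval of 1.28 to 15.8 lay above 1. The libraries, however, overlapped, since shWDR5 replicate 3 held as few reads as shLuc replicate 1. When all genes with at least 1 read were tested, the adjusted p of MT1G was 0.110 in edgeR's quasi-likelihood test, so the difference did not hold up against the spread between libraries. In the same fit the adjusted p was 0.448 for MT1F and 0.221 for MT1E.

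MT1A (chr16:56672578-56673999, plus strand) had 1 read, in shWDR5 replicate 2. MT1L (chr16:56651373-56652730, plus strand) had 1 read, in shLuc replicate 2. MT1M (chr16:56666534-56667898, plus strand) had 0 reads in all 6 libraries, which allows a level of up to 0.0108 CPM over the series (3 reads). No difference between the groups was detectable for these 3 genes at this depth.

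**Figure D3:**
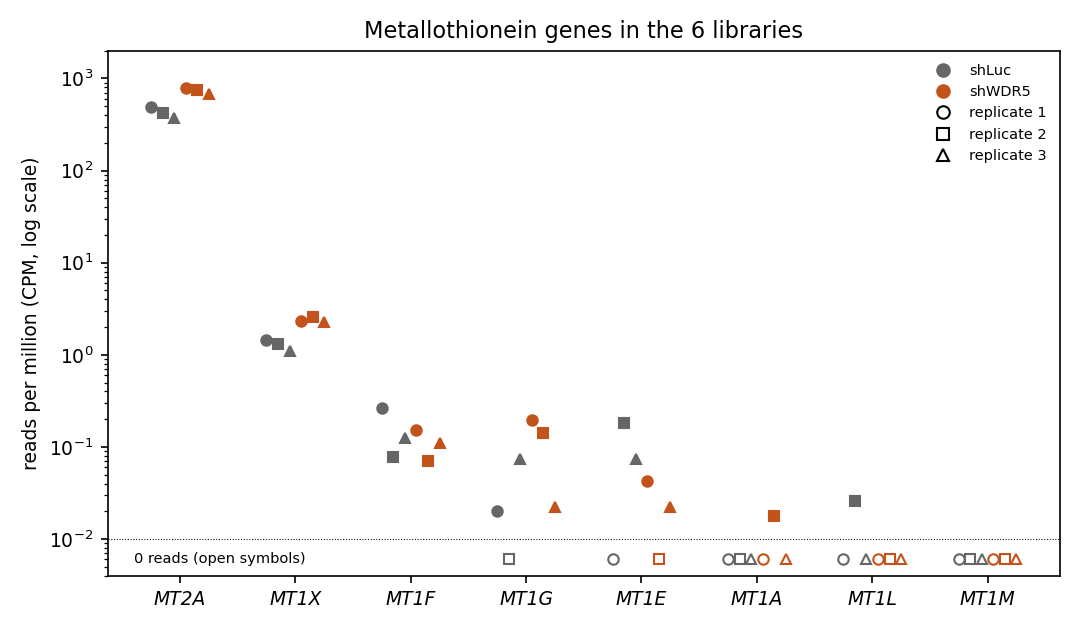
Level (CPM, log axis) of the 8 metallothionein genes, 1 symbol per library (grey shLuc, orange shWDR5, shape for the replicate). Open symbols below the dotted line are libraries with 0 reads. MT2A lies above 300 CPM and MT1X between 1 and 3 CPM in every library, and the other 6 genes lie below 0.3 CPM.

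Summed over the 8 members, the level was 496, 422 and 373 CPM in shLuc and 793, 746 and 685 CPM in shWDR5. The means of 430 ± 61.9 and 741 ± 54.4 CPM (SD, n = 3) gave a ratio of 1.72. As MT2A made up 99.6% to 99.7% of member reads, the sum repeats MT2A and is no separate result. The rest of the family added 1 read to the sum. Of the 8 other metallothionein rows in the table, 7 (MT1B, MT1H, MT1HL1, MT1IP, MT1JP, MT3 and MT4) had 0 reads, and MT1DP had 1 read. MT3, the form known from brain, and MT4, known from stratified squamous epithelium, were thus not detected.

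The promoters of the 2 measurable genes are shown because MTF1 acts through elements in this stretch. They are RefSeq sequences on GRCh38.p14, plus strand, from 250 bases before to 50 bases after the annotated start, and 2 of the 8 members had an entry. Capitals mark the core of the metal response element, searched as TGCACNC or TGCGCNC on both strands.
MT2A, chr16:56608334-56608633: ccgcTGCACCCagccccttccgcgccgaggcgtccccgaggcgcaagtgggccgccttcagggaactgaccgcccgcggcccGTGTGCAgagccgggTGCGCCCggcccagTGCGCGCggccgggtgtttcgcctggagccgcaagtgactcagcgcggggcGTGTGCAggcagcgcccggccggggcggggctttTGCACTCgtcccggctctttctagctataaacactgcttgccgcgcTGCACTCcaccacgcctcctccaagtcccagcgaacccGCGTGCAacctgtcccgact
MT1X, chr16:56682220-56682519: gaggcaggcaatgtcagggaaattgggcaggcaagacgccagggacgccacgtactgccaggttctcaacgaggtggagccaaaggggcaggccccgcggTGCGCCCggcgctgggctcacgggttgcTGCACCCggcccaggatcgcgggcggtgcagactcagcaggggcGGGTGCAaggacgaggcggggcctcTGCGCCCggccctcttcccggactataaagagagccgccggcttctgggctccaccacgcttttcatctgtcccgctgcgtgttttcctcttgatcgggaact
The MT2A window held 8 matches, 5 forward and 3 reverse, none of them overlapping, and 7 lay before the annotated start. As many or more were found in 0.0171% of 35116 promoter windows of the same length, the metallothionein windows included. The MT1X window held 4 matches, 3 forward and 1 reverse. As many or more were found in 0.339% of windows, while 29.6% of all windows held at least 1. The MT1H window also held 8 matches, and MT1H had 0 reads. MT1B and MT4, with 3 matches each, had 0 reads as well.

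The genes that sense and move zinc did not share a direction. MTF1, the zinc sensor, fell from 43.9 ± 2.24 CPM in shLuc to 35.1 ± 0.79 CPM in shWDR5 (SD, n = 3). Its values were 41.5, 44.4 and 45.9 CPM against 36.0, 34.997 and 34.4 CPM, without overlap, and its log2 fold change was -0.32 ± 0.06 (SE, adjusted p 0.00124, edgeR). MTF1 was thus lower in the libraries where MT2A and MT1X were higher. SLC30A1, the zinc exporter of the plasma membrane and a known MTF1 target, measured 26.9, 33.6 and 35.2 CPM in shLuc and 26.1, 28.6 and 29.4 CPM in shWDR5. These values overlapped, and the log2 fold change of -0.19 ± 0.10 (SE) was not called (adjusted p 0.138, edgeR). With the replicate number as a term in the fit it was called lower (adjusted p 0.0148, edgeR), as it was without shLuc replicate 1 (adjusted p 0.0106, edgeR).

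Of the 25 genes of the zinc list (MTF1, 10 SLC30A exporters and 14 SLC39A importers), 21 were tested. There were 6 called higher and 6 lower, 57.1% in all against the background of 56.5%, and the median log2 fold change was -0.01, as it was over all genes. Among 9 tested exporters 1 was higher and 2 were lower, with a median of -0.19. SLC30A3, a low exporter best known from synaptic vesicles, fell by 1.58 on the log2 scale, from 0.990 ± 0.060 to 0.326 ± 0.078 CPM (adjusted p 0.000143, edgeR). Among 11 tested importers 5 were higher and 3 lower, with a median of 0.22. The largest called rises were those of SLC39A4, the zinc importer mutated in acrodermatitis enteropathica, at 0.51 ± 0.09 (log2, SE), SLC39A13 at 0.48 ± 0.06 and SLC39A11 at 0.36 ± 0.08. None of the genes on the list changed as much upward as MT2A, and none met the stricter rule in either direction.

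The copper list held 15 genes, all tested, of which 6 were called higher and 3 lower. That is 60% against 56.5% of all genes, and the median log2 fold change was 0.06. STEAP3, a metal reductase, rose from 25.9 ± 0.47 to 49.9 ± 1.92 CPM (SD, n = 3), a log2 fold change of 0.94 ± 0.06 (SE, adjusted p 8.44e-07, edgeR). STEAP2, of the same family, fell by 1.13 on the log2 scale, from 10.5 ± 1.66 to 4.77 ± 0.60 CPM. ATP7B, a copper exporting pump, and CCS, the copper chaperone for superoxide dismutase, rose by 0.52 ± 0.08 and 0.51 ± 0.09 (log2, SE). ATOX1, ATP7A and the main copper importer SLC31A1 had log2 fold changes of 0.05, -0.05 and 0.06 and were not called.

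**Figure D4:**
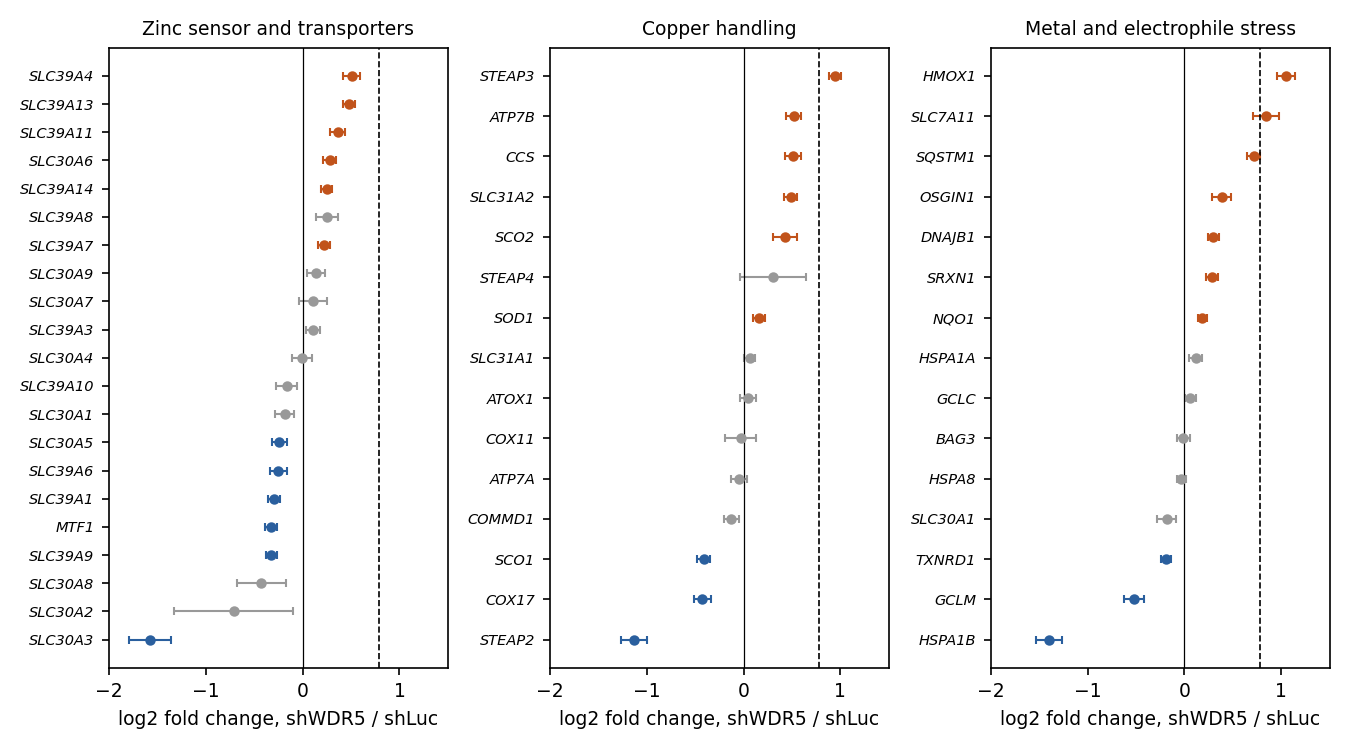
Log2 fold change (shWDR5 over shLuc, points with SE) of the tested genes of the zinc, copper and metal and electrophile stress lists, orange where called higher, blue where called lower and grey where not called. The dashed line marks MT2A at 0.78, which STEAP3, HMOX1 and SLC7A11 exceeded.

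Genes that, like the metallothioneins, respond to metals, electrophiles or protein damage were called in both directions. Of 15 tested, 7 were higher and 3 lower, which is 66.7% against 56.5% of all genes (26.6% higher and 29.9% lower), and the median log2 fold change was 0.12. HMOX1, heme oxygenase and a classical cadmium-inducible gene, measured 5.81, 5.47 and 6.84 CPM in shLuc and 12.8, 11.9 and 12.8 CPM in shWDR5. It rose 2.07-fold (log2 1.05 ± 0.09, SE, adjusted p 7.21e-06, edgeR). SLC7A11, the cystine importer that supplies glutathione synthesis, rose 1.79-fold, and SQSTM1, an autophagy receptor, rose 1.64-fold. GCLM, a subunit of the rate-limiting enzyme of glutathione synthesis, fell by 0.52 on the log2 scale, and GCLC, the other subunit, had a log2 fold change of 0.06 and was not called. HSPA1B fell by 1.40 on the log2 scale while HSPA1A had a log2 fold change of 0.12 and was not called. These 2 heat shock genes are near-identical copies whose reads may have been split between them.

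Glucocorticoid-responsive genes were called in both directions. Of 17 tested, 8 were higher and 8 lower, which is 94.1% against 56.5% of all genes, and the median log2 fold change was -0.05. NR3C1, the glucocorticoid receptor, measured 96.5, 116 and 108 CPM in shLuc and 88.2, 96.9 and 95.8 CPM in shWDR5. The groups overlapped. Its log2 fold change of -0.19 ± 0.07 (SE) was called (adjusted p 0.0468, edgeR). The call was lost when shLuc replicate 2 or 3, or shWDR5 replicate 1, 2 or 3, was left out (adjusted p 0.0694 to 0.178, edgeR), and also with RLE size factors (0.0598, edgeR) and in DESeq2 (adjusted p 0.0661). ANGPTL4, an inhibitor of lipoprotein lipase, rose 2.40-fold, the acute-phase protein gene SERPINA3 1.95-fold and NFKBIA, the NF-kB inhibitor, 1.78-fold. GLUL, glutamine synthetase, fell by 0.92 on the log2 scale, and FKBP5, a co-chaperone of the receptor and one of its best known targets, fell by 0.80. The list's lower count was 5 instead of 8 without shWDR5 replicate 2, and likewise without shWDR5 replicate 3.

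From the start of MT2A to the end of MT1X the cluster spans 75.6 kb, with no gene row outside the family in between. Of 17 gene rows within 500 kb on either side, 10 were tested, and 2 were higher and 6 lower, with a median log2 fold change of -0.25 (-0.01 over all genes). That is 80% called, against 56.5% of all genes (26.6% higher and 29.9% lower). BBS2, the nearest tested gene before the cluster and a subunit of the complex that serves the primary cilium, had a log2 fold change of -0.08 ± 0.06 (SE) and was not called. NUP93, the nearest after it and a subunit of the nuclear pore, fell by 0.41 on the log2 scale. OGFOD1, a prolyl hydroxylase of a ribosomal protein, and NUDT21, a subunit of the mRNA cleavage factor, fell by 0.44 and 0.54, and GNAO1, a G protein alpha subunit, by 1.16. HERPUD1, which acts in protein degradation at the endoplasmic reticulum, was called higher with a log2 fold change of 0.28 ± 0.05 (SE), a smaller change than that of MT2A. Without shLuc replicate 2, shWDR5 replicate 1 or shWDR5 replicate 2 the count of neighbours called higher was 1.

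**Figure D5:**
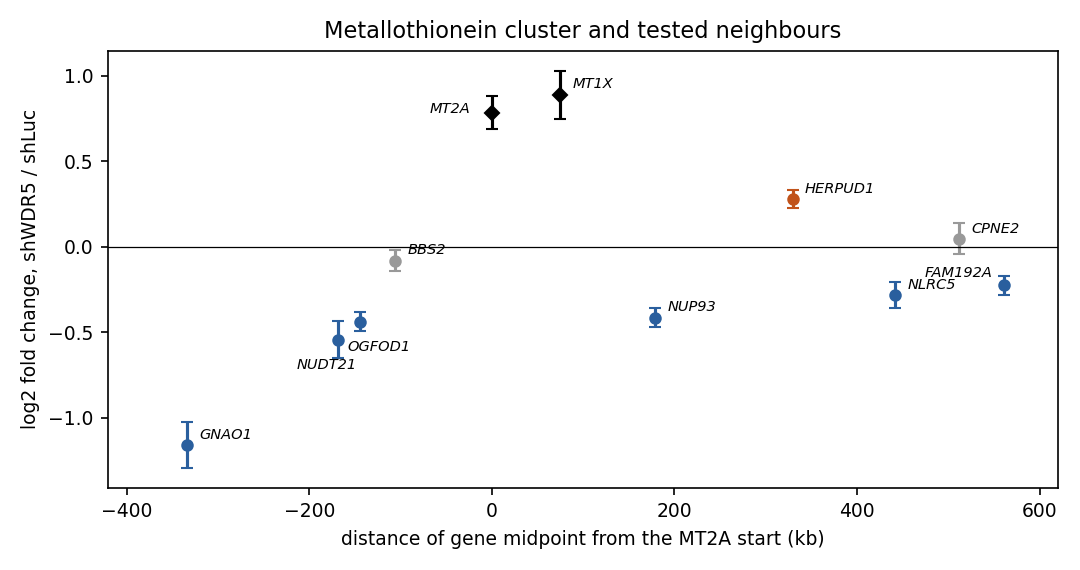
Log2 fold change (shWDR5 over shLuc, points with SE) against the distance in kb of each gene's midpoint from the start of MT2A. Black diamonds are MT2A and MT1X, orange and blue circles are neighbours called higher or lower, and grey circles were not called. Both metallothionein genes lie above the 9 neighbours plotted, of 10 tested.

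The genes whose profile was most like that of MT2A were named by the root mean square difference of log2(CPM + 0.5) over the 6 libraries, each gene centred on its own mean, among 16115 genes outside the family. They were SLC45A4 (0.039), MGAM (0.040), ROPN1 (0.041), MC1R (0.042) and NUTM2D (0.046), where the median over all genes was 0.439. The added 0.5 CPM shrinks the differences of low genes and decided most of these names. Without it, among 16087 genes with reads in every library, the 5 nearest were SLC45A4 (0.043), ZBTB22 (0.043), SWI5 (0.044), MC1R (0.047) and JOSD2 (0.054), so that 2 of the 5 names were shared. MGAM, at 0.446 to 1.55 CPM and with a log2 fold change of 1.27, then lay at 0.291, ROPN1 at 0.113 and NUTM2D at 0.079.

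SLC45A4, a member of a solute carrier family, measured 10.7, 8.87 and 8.18 CPM in shLuc and 17.5, 15.9 and 15.8 CPM in shWDR5. MC1R, the melanocortin receptor, measured 8.34, 7.61 and 6.57 CPM in shLuc and 14.4, 13.2 and 12.8 CPM in shWDR5, and had a log2 fold change of 0.84 ± 0.10 (SE). MT1X lay at 0.086 from MT2A with the added 0.5 CPM and at 0.091 without it, and 31 and 45 genes outside the family lay closer.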

How the data were processed

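Poly-A RNA of 6 MCF10DCIS.com libraries (3 shLuc, 3 shWDR5, grouped by their titles) had been sequenced. According to the submitters' processing notes the authors aligned the reads with TopHat2 2.1.0 to hg19 (GRCh37) and made raw counts per gene with featureCounts. The deposited counts, whole numbers with the exon length of each gene, were used as they stand. Depth was 38.2 to 57.6 M (1e6) counts per library. A second deposited file holds only the authors' own comparison (log2 fold changes, p-values) and was not used.

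Genes were kept by filterByExpr of edgeR 4.0.16 (minimum count 10), scaled by TMM and tested with its quasi-likelihood test on group alone (R 4.3.3), with Benjamini-Hochberg adjustment over 16117 genes and a call at FDR 0.05. The SE is the absolute log2 fold change divided by the square root of F. A two-sided exact permutation test was used for 1 ratio. RPKM was computed from the counts and the length column. The fit was tested on simulated data. Alternatives were RLE size factors, library size alone, no filter, DESeq2 1.42.0, the replicate number as a block, a stricter rule (absolute log2 fold change of at least 0.6, over 0.5 RPKM) and leaving out each library. Log2 CPM without the added 0.5, for the likeness of profiles, was an alternative chosen after seeing the data. Replicates of a group differed by far more than sampling noise (chi-square per degree of freedom 7.15 to 18.2). The members and lists were chosen with earlier results of these data known. Named in the text are WDR5, all members, other metallothionein rows past the filter (none), MTF1, SLC30A1, NR3C1, up to 4 called genes of largest change per list, and the 5 genes most like the most abundant member. Other genes (MT1HL1 and further rows at or near 0 reads, BBS2, HERPUD1, ZBTB22, SWI5, JOSD2, ATOX1, ATP7A, SLC31A1, GCLM, GCLC, HSPA1A, FKBP5 and the cell markers) were named after their values were seen. 1 tested neighbour is counted but not reported here by itself. Sequences are from GENCODE release 29 and RefSeq, aligned with Biopython 1.88.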

Additional observations from a re-analysis of the deposited data

How the results depend on the processing

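MT2A and MT1X kept their direction and their call under each of the 12 alternatives. The log2 fold change ranged from 0.69 to 0.91 for MT2A (adjusted p 1.05e-14 to 0.00067) and from 0.78 to 1.01 for MT1X (6.68e-05 to 0.00242), in edgeR or DESeq2. The log2 ratio of the summed members, nearly all of whose reads were MT2A reads, was 0.78 and stayed between 0.69 and 0.91.

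Replicate numbers are shared between the groups. The deviations of same-numbered libraries correlated at 0.56, 0.06 and 0.20, and those of unlike-numbered libraries at -0.49 to 0.36. The main fit did not take same-numbered libraries as pairs, and these values do not settle whether they were. With the replicate block (paired fit) MT2A and MT1X stayed called and all genes called were 4901 higher and 5511 lower, against 4291 and 4821.

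The stricter rule reduced the calls over all genes to 1274 higher and 1688 lower. The zinc list then held 0 higher and 0 lower, the copper list 1 and 1, the glucocorticoid list 4 and 5, the stress list 3 and 1 and the neighbours 0 and 1. With RLE size factors, and with DESeq2, 5 glucocorticoid genes were called lower, and with library size alone 1 neighbour was called higher. Leaving out 1 library gave 5 to 6 glucocorticoid genes called lower and 1 to 2 neighbours called higher. The cause of these shifts was not tested, other than that the stricter rule calls fewer genes by construction. Depth limits the 6 members under the filter, of which none was called when the filter was dropped.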
